A study of Caenorhabditis elegans with 22 samples.

Results

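Small RNA was set against transcript level, gene by gene, in wild-type Caenorhabditis elegans. The data were 2 small RNA libraries and 2 total RNA libraries of wild type, which are 4 of the 22 samples in the series. The animals were whole young adults with embryos, collected 70 h after L1 arrest from larvae grown for 71 h at 20 °C on OP50 bacteria, per the labels' protocols. The series as a whole addresses ADAR RNA editing and the ERI-6/7 helicase pathway; those mutants enter here only where the wild-type genes were looked up in other libraries. Small RNA replicate 1 came from strain GR1831, a wild-type strain that carries the transgene mgIs30, and replicate 2 came from N2, so strain and library cannot be told apart. Both total RNA libraries came from N2. The mutant small RNA libraries used for lookup were adr-1(gv6); adr-2(gv42) of strain BB4, adr-1(tm668); adr-2(ok735) of strain BB21, and 2 of eri-6(mg379) of strain GR1814, and 1 mRNA library of N2 on control RNAi food (L4440) gave a second transcript measure. No label says whether replicate libraries are separate cultures. Marker genes of the tissues of a whole adult were measured, since 6 of 6 vitellogenin, 24 of 29 muscle, 30 of 31 intestine, 112 of 164 neuron and 32 of 38 oocyte and early embryo genes reached the ranked set. Of 46780 gene IDs in the small RNA table, 35910 were joined by gene ID to a wild-type transcript level. Of these, 8777 were protein-coding genes with at least 1 FPKM (a measure of transcript level scaled by transcript length and library depth) and a gene length of at least 200 bases, and they form the ranked set.

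In nematodes most endogenous siRNAs are secondary siRNAs. RNA-dependent RNA polymerases copy them from a transcript that an Argonaute protein has already marked, so they are antisense to their template. They are then bound by other Argonautes, some of which silence the gene (the WAGO group), while CSR-1 binds siRNAs against genes that the germline expresses. A separate primary pathway, which uses ERGO-1 and the ERI-6/7 helicase, acts on a small set of mostly duplicated genes and pseudogenes. The libraries were treated with a 5′ polyphosphatase, which makes RNAs that start with a triphosphate, as secondary siRNAs do, open to ligation. No source used here gives the strand of the counted reads, so antisense siRNA and sense fragments of a transcript cannot be told apart, and RNA of any kind between 18 and 28 nt within a gene was counted for that gene.

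The small RNA libraries held 25690179 reads in replicate 1 and 12446099 reads in replicate 2. Protein-coding genes took 39.4% of the reads in replicate 1 and 55.7% in replicate 2, and microRNA genes 29.7% and 19.7%. Each gene's level was its deposited normalised reads per kilobase of the gene's own span, introns included. Total RNA was deposited as 1 FPKM value over both libraries with a lower and an upper bound, so a transcript level has no spread of its own between replicates here. The ranked genes were divided by FPKM into 20 bins of equal size. A gene was called high when its level lay in the top 5% of its bin in both libraries, and low when it lay in the bottom 5% in both. These calls describe where a gene lies among genes of like transcript level; they are not tests, and agreement of the 2 libraries stands in for an error.

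Small RNA levels varied widely among genes of like transcript level, and they followed transcript level only weakly. In the lowest bin, at 1.00 to 1.29 FPKM, the median gene had 5.24 normalised reads per kilobase in replicate 1 and 6.45 in replicate 2. In the tenth bin, at 6.69 to 8.17 FPKM, the medians were 24.4 and 40.1. In the bin second from the top, at 90.1 to 224 FPKM, they were 41.9 and 84.1. The highest bin started at 224 FPKM and had medians of 40.96 and 66.2, no higher than the bin below it in either library. The median small RNA level thus climbed over the lower bins and then stayed nearly level while FPKM went up further. Per unit of FPKM, the median went from 4.68 and 5.75 normalised reads per kilobase in the lowest bin to 0.029 and 0.0481 in the highest. Across the 8777 genes, the Spearman rank correlation of small RNA level with FPKM was 0.20 in replicate 1 and 0.21 in replicate 2; genes of a library share its depth and are not independent, so these values only describe the set. Within bins, the upper quartile was 13.3-fold above the lower quartile in replicate 1 and 18.2-fold in replicate 2. The 95th percentile lay 18.2-fold and 22.2-fold above the bin median.

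**Figure D1:**
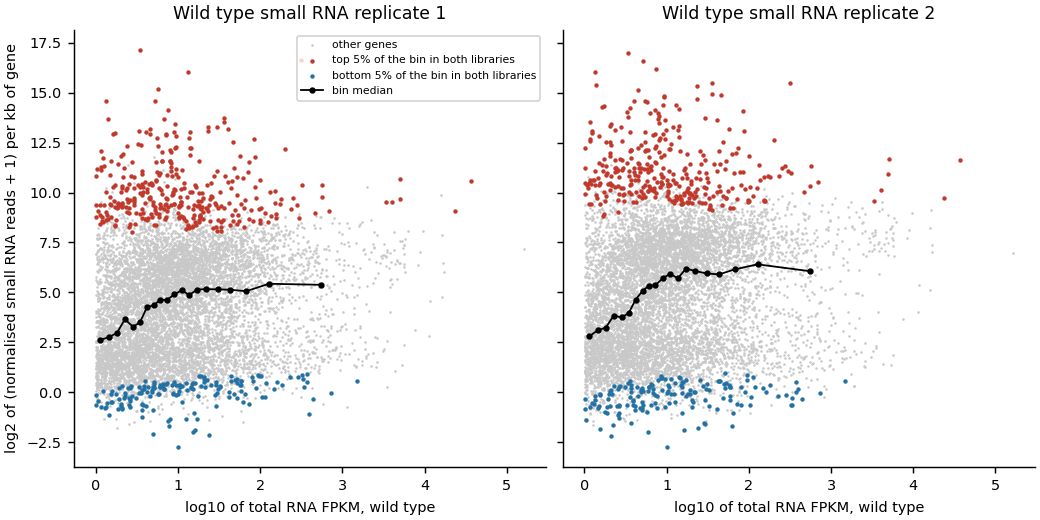
Small RNA per kilobase of gene (log2 of normalised reads plus 1, y axis) against total RNA FPKM (log10, x axis) for 8777 protein-coding genes in wild-type small RNA replicate 1 (left) and replicate 2 (right). Grey points are genes, and the black line joins the medians of 20 bins of FPKM, which level off. Red points are the 338 genes in the top 5% of their bin in both libraries. Blue points are the 160 genes in the bottom 5% in both. Calls were made within each bin, so the spread of red and blue genes over FPKM follows from the rule.

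The libraries placed the same genes at the upper end and fewer of the same genes at the lower end. High genes numbered 338, or 3.85% of the 8777 ranked genes, out of 440 in the top 5% in each library alone. Low genes numbered 160, or 1.82%, out of 440 in the bottom 5% in replicate 1 and 439 in replicate 2. No gene (0 of 8777) was in the top 5% of 1 library and the bottom 5% of the other. The distance of a gene from its bin median correlated between the libraries with a Spearman coefficient of 0.92 across the 8777 genes. High genes were found in every bin, with 13 to 19 of about 439 genes, and low genes with 5 to 11. The calls were made within bins, so this spread over transcript level follows from the rule.

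High genes held much of the protein-coding small RNA. Together they carried 56.8% of the protein-coding reads in replicate 1 and 43.2% in replicate 2. A large share of this belonged to 17 high genes whose span overlaps an annotated microRNA, tRNA, snoRNA or other small RNA gene. Those 17 held 47.4% and 21.95% of the protein-coding reads. The other 321 high genes held 9.41% and 21.2%, and their median was 1593 reads per gene in replicate 1 and 2155 in replicate 2, against 62 in each library for all ranked genes. The 160 low genes together held 0.00344% and 0.00284%.

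Of the 10 ranked protein-coding genes with the most small RNA per kilobase in both libraries, 4 were hosts of microRNA genes. Y62F5A.9 (WBGene00013387, chromosome II, 11535141 to 11538841 in build WBcel235), whose span holds mir-35 to mir-41, had 599119 reads in replicate 1 and 337046 in replicate 2 at 3.43 FPKM. The mir-35 family is known for its need in embryonic development. The gene pmp-5 (WBGene00004062), an ABC transporter of the peroxisomal type whose span holds mir-70, had 412121 and 118439 reads at 317 FPKM. The locus of gid-2, which holds mir-81 and mir-82, had 382401 and 151016 reads at 5.72 FPKM. Y67D8A.2, which holds mir-58.1, had 2300843 and 459410 reads at 13.1 FPKM, more than any other ranked gene in both libraries. In these 4 loci the reads assigned to the host and those of the microRNA it contains cannot be told apart. Of 50 ranked genes that overlap a microRNA gene, 11 were high, beside 3.85% of all ranked genes. The gene ech-7, which overlaps mir-8187, was among the lowest genes.

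Outside such hosts, the highest genes were mostly short genes of low transcript level that are named only by their clone. B0250.8 (WBGene00007125, chromosome V, 20469894 to 20470485) had 16455 reads in replicate 1 and 28707 in replicate 2. Its transcript level was 1.34 FPKM with deposited bounds of 0.239 and 2.44. These reads come to 24772 and 68577 normalised reads per kilobase, 3662-fold and 8002-fold above its bin median, the largest excess in both libraries among genes that overlap no small RNA gene. W09C5.12 (WBGene00194660, chromosome I, 13661522 to 13662332), which overlaps the gene W09C5.9, had 22534 and 56323 reads at 5.19 FPKM, 1212-fold and 2913-fold above its bin median. F37D6.3 (WBGene00009509, chromosome I, 10486699 to 10487341) had 12890 and 34165 reads at 7.5 FPKM. W04A8.9 had 14853 and 24317 reads at 1.73 FPKM. All 4 lay at the 99.9 percentile of their bin in each library. The short genes K08F11.1 and Y76B12C.8, of 452 and 370 bases, were among the 10 ranked genes with the most small RNA per kilobase. They had 6850 and 14941 reads, and 5010 and 8328 reads, at 35.8 and 36.1 FPKM.

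Members of large gene families and 1 histone gene reached the same range. The F-box gene fbxb-14 (chromosome II, 582111 to 582749), which overlaps W08F4.12, had 9543 and 19375 reads at 1.39 FPKM. F-box proteins are adaptors of ubiquitin ligases, and the family is greatly enlarged in this species. A second member, fbxb-97, had 5666 and 9779 reads at 1.17 FPKM, and the chemoreceptor gene srh-48 had 6121 and 9654 reads at 1.23 FPKM. The linker histone gene his-24 (WBGene00001898, chromosome X, 14490094 to 14491119) had 9157 and 14640 reads at 1.63 FPKM, 1019-fold and 2161-fold above its bin median. The noncoding RNA gene M163.16 lies over his-24 and had 3723 and 5457 reads of its own, so the counts of this pair share a place. In mRNA of wild type on control RNAi food, his-24 was at 25.9 FPKM, well above its total RNA value.

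The ERGO-1 class, whose members are templates of the primary siRNAs bound by ERGO-1, stood far above genes of like transcript level. Of 22 members in the small RNA table, 8 were ranked as protein-coding genes, all 8 lay above their bin median in both libraries, and 6 were high, beside 3.85% of all ranked genes. This list and the others were drawn up with earlier results of these data known, so the counts describe and do not support anything. The median of the 8 was 202-fold and 193-fold above the bin median, where the median over all ranked genes is at its bin median by construction. Y37E11B.2 (WBGene00021375, chromosome IV, 3578565 to 3579534) had 9410 reads in replicate 1 and 9817 in replicate 2 at 3.37 FPKM, 769-fold and 925-fold above the bin median. K02E2.6 had 11235 and 9447 reads at 13.6 FPKM, and Y17D7B.4 had 4739 and 4079 at 40.8 FPKM, the highest transcript level of the 8. E01G4.5 had 3520 and 9599 reads, a wider difference between the libraries than in any other of the 8, and K06B9.6 had 4058 and 4326. F55C9.3 was the sixth high member, with 1820 and 1072 reads. The members that were not called high, F55C9.5 with 905 and 550 reads and Y43F8B.9 with 663 and 597, were 21.9-fold or more above their bin median in each library.

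The 9 ERGO-1 class loci that could not be placed in the bins ranged from a few reads to more than any ranked member. C36A4.11 had 4141 and 4697 reads and was just under the minimum at 0.937 FPKM. C44B11.6 spans 189 bases, under the length minimum, and had 14333 and 9701 reads at 114 FPKM. The long noncoding locus linc-22, to which no FPKM was joined here, had 100955 and 67201 reads. W05H12.2 had 2371 and 4808 reads, H16D19.4 had 788 and 769, and F52D2.6 had 272 and 281. C08F11.7 had 123 and 1435 reads, F14F7.5 had 239 and 47, and F55C9.11 had 7 and 5, so the last was nearly bare. The pseudogenes of the class that had at least 1 FPKM were E01G4.7 with 8453 and 7874 reads, W04B5.1 with 4802 and 7366, ZK380.5 with 1812 and 1708, and T08B6.2 with 1594 and 851; the first 3 lay in the range of the high protein-coding genes in both libraries. The noncoding locus H09G03.1 had 2368 and 2162 reads and was high too.

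Loci named in other work as targets of nuclear RNAi or of siRNA feedback ranged widely. Of 9 IDs on that list, 3 were ranked, and 2 of these were high, beside 3.85% of all ranked genes. The order of this list and the ERGO-1 class turned with the processing: as log2 medians over both libraries they were at 6.08 and 7.62, but at 7.67 and 5.93 without a length correction, and at 9.002 and 8.02, or 8.91 and 8.17, with mRNA FPKM. With no FPKM minimum they were at 7.99 and 7.88. The gene bath-45, of the BATH family, had 20078 and 32663 reads at 8.91 FPKM, 277-fold and 405-fold above its bin median. The locus eri-6 had 41328 and 33106 reads at 17.8 FPKM, 86.3-fold and 53.2-fold above; its 12084-base span overlaps sosi-1, linc-104 and T01A4.9, so part of those reads can belong to them. The neighbouring eri-7, whose transcript is joined to that of eri-6 by trans-splicing, had 180 and 231 reads, 2.56-fold and 3.77-fold above its bin median. Below 1 FPKM, F15D4.5 had 15889 and 29211 reads, C38D9.2 had 4898 and 4727, and sosi-1 had 2840 and 2701. F07B7.2 had 1269 and 933 reads under 1 ID and 1238 and 915 under another, and R03H10.6 had 382 and 405.

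Genes of the siRNA machinery were themselves well covered by small RNA. All 12 ranked RNA-dependent RNA polymerase and mutator genes lay above their bin median in both libraries, with a list median of 8.41-fold and 8.40-fold, and 2 of them were high, beside 3.85% of all ranked genes. The highest was rde-11, which acts with RDE-10 in siRNA amplification. It had 2393 reads in replicate 1 and 3163 in replicate 2 at 3.28 FPKM, 119-fold and 182-fold above the bin median. In mRNA of wild type on control RNAi food, rde-11 was at 29.1 FPKM, well above its total RNA value. Its partner rde-10 was the lowest of the list by the smaller of its 2 distances, at 1.71-fold and 4.10-fold. The other high member, mut-14, a DEAD-box helicase gene, was at 16.7-fold and 12.4-fold. The polymerase genes ego-1 (germline) and rrf-3 (ERGO-1 pathway) stood at 11.3-fold and 8.54-fold, and at 8.88-fold and 14.5-fold. The scaffold gene of mutator foci, mut-16, was at 5.47-fold and 8.26-fold, and the exonuclease gene mut-7 at 9.12-fold and 11.13-fold. The remaining members, rde-12, rde-2, nyn-1, nyn-2 and rde-8, ranged from 1.94-fold to 11.2-fold. The log2 median of the list over both libraries was 3.07. Under other processing it ranged from 2.28, with mRNA FPKM, to 3.78, in a ranking by the ratio of small RNA to FPKM.

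Among 12 ranked Argonaute genes, 5 were high, beside 3.85% of all ranked genes, and 10 lay above their bin median in both libraries. The log2 median of the list over both libraries was 2.87, and 1.61 or 1.57 with mRNA FPKM in place of total RNA; for the ERI complex list it was 2.41, and 1.41 or 1.31. The Piwi gene prg-1 (WBGene00004178, chromosome I, 7585329 to 7588367) had 4549 reads in replicate 1 and 3606 in replicate 2 at 22.8 FPKM, 37.3-fold and 24.96-fold above its bin median. The others were the germline Argonaute genes hrde-1 at 22.7-fold and 31.0-fold, wago-4 at 22.1-fold and 23.3-fold, ppw-2 at 18.7-fold and 16.2-fold, and csr-1 at 17.1-fold and 15.3-fold. Argonaute genes of the somatic nuclear and primary siRNA pathways were lower: nrde-3 was at 1.25-fold and 2.98-fold, ergo-1 at 1.07-fold and 1.93-fold, and sago-1, which binds secondary siRNAs, lay 4.61-fold and 9.02-fold below its bin median. The microRNA Argonaute gene alg-2 was at 1.55-fold and 3.76-fold, vsra-1 lay 1.58-fold and 1.03-fold below, and wago-1 and sago-2 were between 5.35-fold and 12.5-fold above. The loci prg-2 and wago-2, which are annotated as pseudogenes, were at 13.5-fold and 10.5-fold, and at 28.3-fold and 40.4-fold. For the ERI complex and other RNAi factors the median was 4.84-fold and 5.86-fold, with 3 of 12 high. The highest of these was parn-1, an exonuclease gene of piRNA maturation, at 49.0-fold and 57.8-fold, and the lowest was sid-2, the gene of a double-stranded RNA importer of the intestine, at 7.88-fold and 12.18-fold below.

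**Figure D2:**
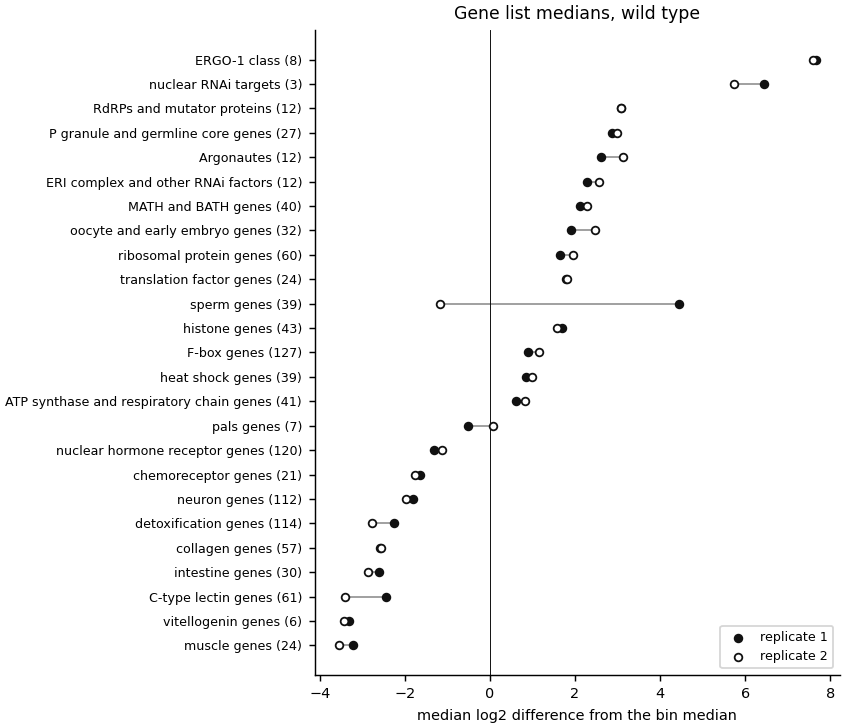
Median log2 distance from the bin median (x axis) of each gene list (y axis, with its number of ranked genes), in wild-type small RNA replicate 1 (filled) and replicate 2 (open). Lists of RNAi and germline genes stand to the right of 0 and lists of muscle, intestine, collagen and vitellogenin genes to the left; the sperm genes have their 2 libraries on opposite sides of 0, at 4.45 and -1.17.

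Both lists of germline genes, those of P granules and the germline core and those of oocytes and early embryos, had medians above genes of like transcript level. Of 27 ranked P granule and germline core genes, 26 lay above their bin median in both libraries. The list median was 7.25-fold and 7.88-fold, and 4 were high, or 14.8%, beside 3.85% of all ranked genes. The highest was car-1, an RNA-binding protein gene of germ granules, with 1235 and 1398 reads at 28.3 FPKM, 19.8-fold and 20.4-fold above its bin median. The lowest was gld-2, the gene of a cytoplasmic poly(A) polymerase, at 1.11-fold and 1.24-fold below; its span of 16447 bases is long, and introns count in the length. Of 32 oocyte and early embryo genes, 28 lay above in both libraries, with a median of 3.75-fold and 5.56-fold. In this list 1 gene was high, or 3.1%, which is no more than the 3.85% of all ranked genes. The polarity gene par-2 was highest of that list by the smaller of its 2 distances, at 19.6-fold and 46.9-fold, and the eggshell gene perm-2 was lowest with 3 reads in each library at 91.8 FPKM. With mRNA FPKM the distances were smaller: the log2 median over both libraries was 2.92 for the first list and 1.71 or 1.70 with mRNA, and 2.19 for the second and 0.69 or 0.70. In whole animals a difference in the number of germline cells and a difference per cell cannot be told apart.

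Genes of protein synthesis had moderate and even small RNA levels. Of 60 ribosomal protein genes, 59 lay above their bin median in both libraries and 2 were high, and the list median was 3.14-fold and 3.90-fold above, although in a ranking by the plain ratio of small RNA to FPKM it was below the median gene, at -5.80 on the log2 scale. The highest, rps-19, had 670 and 994 reads at 4978 FPKM, and the exception among the 60 was rpl-25.1, which lay below in both with 6 and 22 reads at 83.5 FPKM. Translation factor genes had medians of 3.47-fold and 3.49-fold, with 1 of 24 high, and -0.45 on the log2 scale in the plain ratio. The high member was iff-2, the gene of an eIF5A protein, with 2093 and 2518 reads, and its span overlaps the small RNA gene F54C9.12; the lowest was ife-2, a cap-binding eIF4E gene, with 9 and 12 reads. Heat shock genes had medians of 1.81-fold and 1.98-fold, with 3 high and 1 low of 39; dnj-13 was highest at 10.8-fold and 13.4-fold, and the small heat shock gene hsp-43 had 2 reads and 1 read at 90.1 FPKM. Nuclear genes of the respiratory chain and ATP synthase were at 1.53-fold and 1.76-fold, with 1 of 41 high, and they lay below the median gene when mRNA FPKM or the plain ratio was used, at -0.35, -0.36 and -2.998 on the log2 scale. In that list 2 paralogs of a complex III core protein were at opposite ends: ucr-2.1 had 1835 and 1575 reads at 97.9 FPKM, and ucr-2.2 had 34 and 11 at 53.7 FPKM. High genes were 3.33% of the ribosomal, 4.17% of the translation factor, 7.69% of the heat shock and 2.44% of the respiratory list. These shares stand beside 3.85% of all ranked genes. The low heat shock gene was 2.56% of its list, beside 1.82% of all. No test was made of these shares.

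Histone genes, F-box genes and MATH or BATH genes were uneven. Of 43 ranked histone genes, 7 were high and 37 lay above in both libraries, with a median of 3.23-fold and 2.97-fold; the sign of this median turned without a length correction, to -0.09 on the log2 scale, and in the plain ratio, to -1.27. Histone genes are short and many are near-identical copies, so their reads are uncertain between copies. The lowest was his-40, with 11 and 2 reads at 66.2 FPKM. Of 127 F-box genes of the fbxa, fbxb and fbxc families, 13 were high and 0 low, although the median was only 1.85-fold and 2.24-fold; fbxa-69 had 0 and 5 reads. Of 40 MATH and BATH genes, 7 were high, led by bath-20 with 19353 and 28689 reads at 7.24 FPKM, and the median was 4.30-fold and 4.86-fold. At the other end of that list btb-14 had 0 reads and 2 reads at 14.6 FPKM. The share of high members, 13 of 127 and 7 of 40, stands beside 3.85% of all ranked genes and was not tested.

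Genes of muscle, intestine, cuticle and yolk carried little small RNA for their transcript level. All 6 vitellogenin genes, whose yolk proteins the intestine makes for the oocytes, lay below their bin median in both libraries. The highest of them, vit-1, had 31 reads in replicate 1 and 35 in replicate 2 at 104 FPKM, and vit-3, the lowest, had 7 and 17 reads at 47.4 FPKM. At the bin median a gene of the length of vit-3 would have had 202 and 218 reads. The list median was 9.89-fold and 10.8-fold below, and none of the 6 was called low. Its size depended on the length used: the log2 median over both libraries was -3.37, but -2.19 with the deposited locus as length and -1.29 without a length correction. Of 24 muscle genes, 19 lay below in both libraries, and the median was 9.35-fold and 11.8-fold below; 1 was low, beside 1.82% of all ranked genes. The troponin I gene tni-1, lowest of the list by the smaller distance but not called low, had 3 and 0 reads at 18.9 FPKM. The actin gene act-2 lay 5.102-fold and 3.88-fold above its bin median. Its reads can be shared with other actin genes of nearly the same sequence.

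Of 30 intestine genes, 26 lay below in both libraries and 0 above in both, with a median of 6.10-fold and 7.24-fold below. The aspartyl protease gene asp-5 had 0 and 4 reads at 1141 FPKM, and spp-1, a saposin-like antimicrobial gene, was nearest the bin median with 25 and 45 reads. Of 57 collagen genes, 45 lay below in both libraries and 3 were low, beside 1.82% of all ranked genes; the median was -2.58 and -2.56 on the log2 scale, or -2.48 and -1.97 when genes at 0 reads were set to 3 reads. C-type lectin genes had medians of 5.42-fold and 10.5-fold below with 4 of 61 low beside the same 1.82%, and clec-87 was the highest at 5.45-fold and 5.97-fold above. Detoxification genes (cytochrome P450, UDP-glucuronosyltransferase and glutathione S-transferase families) had medians of 4.77-fold and 6.78-fold below with 6 of 114 low, again beside 1.82%, and ugt-31 was highest at 14.5-fold and 13.6-fold above. At the other end gst-42, which was not called low, had 3 reads and 0 reads at 27.4 FPKM. The log2 medians over both libraries of the intestine, collagen, lectin and detoxification genes were -2.73, -2.57, -2.92 and -2.51. With reads scaled by library total these medians were nearer 0, at -1.79, -0.84, -1.55 and -1.45. Scaling by 1 factor per library moves a distance only through the 1 added to each value before the log. That 1 stood for more reads after this scaling, so the shift reflects a larger added value. With 5 normalised reads added, the medians were -2.33, -1.65, -2.45 and -2.04.

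Neuron genes had medians of 3.48-fold and 3.90-fold below, with 4 high and 3 low of 112, beside 3.85% and 1.82% of all ranked genes. The log2 median over both libraries was -1.88, but -3.17 without a length correction. It was -0.45 with reads scaled by library total, where again the 1 added before the log stood for more reads. With genes at 0 reads set to 3 reads, the log2 medians were -1.75 and -1.24. The insulin-like gene ins-5 was highest, with 1105 and 1465 reads at 1.12 FPKM, and the neuropeptide gene flp-4 was lowest with 0 reads in both libraries at 9.96 FPKM. Of 21 ranked chemoreceptor genes among 1600 in the table, 17 lay below in both libraries, with medians of 3.103-fold and 3.39-fold below; srr-4 was lowest with 6 and 5 reads. Nuclear hormone receptor genes were at 2.504-fold and 2.17-fold below with 1 high and 1 low of 120. The highest was nhr-249 with 1770 and 3026 reads. By the smaller of its 2 distances nhr-134 was lowest, with 1 and 4 reads, but it was not called low. The 7 ranked pals genes had log2 medians of -0.51 and 0.07, with no direction shared by the libraries. They ranged from pals-18, with 325 and 612 reads, to pals-17, with 5 reads and 1 read.

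The low genes were at or near 0 reads. Of the 160, 34 had 0 reads in both libraries and 126 had at most 3 reads in each, and the median was 1 read in each library. A count of 0 allows up to 3 reads by counting error alone. Over all ranked genes, 119 had 0 reads in both libraries and 885 had at most 3 in each. Which of these sparsely covered genes were called low depended on gene length, since a long gene with few reads has a lower level per kilobase: without a length correction 203 genes were low, and 52 of the 160 were among them. With the deposited locus as the length 262 were low, and 55 of the 160 were among them.

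Among low genes of at least 10 FPKM, the gene lowest by the larger of its 2 distances was Y116F11A.6 (WBGene00013819, chromosome V, 19719553 to 19727964). It had 1 read in each library at 24.02 FPKM, where a gene of its length at the bin median would have had 330 and 395 reads. The gene lury-1 (chromosome III, 12186411 to 12190116), which encodes a neuropeptide precursor, had 0 reads in both libraries at 16.2 FPKM, where its length at the bin median would have given 144 and 190, so it was at least 48.1-fold and 63.4-fold lower with 3 reads per library as the floor. The collagen gene col-159 had 0 and 2 reads at 15.4 FPKM against 154 and 202 at the bin median. Both neuropeptide genes, lury-1 and flp-4, were at 0 in each library and were also low without a length correction.

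The most strongly expressed of these genes were phat-8, ech-7, ifb-1 and C53B7.2. The gene phat-8, named for its likeness to toxin genes of the pharyngeal gland, had 0 reads in both libraries at 438 FPKM, and it was at least 19.7-fold and 20.1-fold below its bin median. The enoyl-CoA hydratase gene ech-7 had 0 reads and 1 read at 391 FPKM. The intermediate filament gene ifb-1 had 5 and 7 reads at 114 FPKM over a span of 6467 bases, against 304 and 385 at the bin median. C53B7.2 had 0 reads in both libraries at 105 FPKM, as had F47B10.5 at 72.2 FPKM and C10A4.13 at 15.5 FPKM. The lectin gene clec-160 had 1 read and 0 reads, clik-2, a calponin-like gene, had 0 reads and 1 read, and Y75B8A.44 had 0 and 2 reads. Of these 12 genes, 5 (Y75B8A.44, col-159, clik-2, ech-7 and ifb-1) were no longer low without a length correction.

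The threshold fell in a range without a gap. Just inside the high group, orc-5 had 659 and 1261 reads and lay at the 95.1 and 97.1 percentiles of its bin, and just outside, atf-4 had 541 and 866 reads at the 94.9 and 96.5 percentiles. Just inside the low group, amt-4 had 5 and 4 reads, and just outside, nas-37 had 6 and 2 reads.

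**Figure D3:**
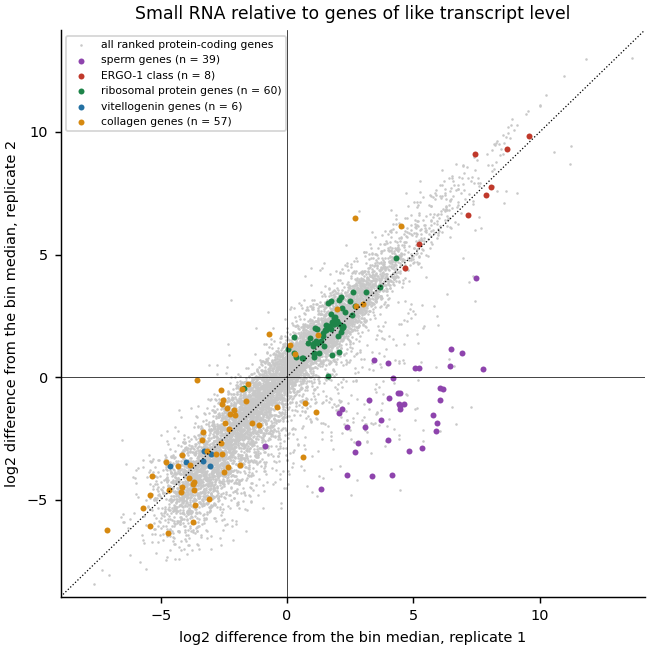
Log2 distance of each gene from its bin median in wild-type small RNA replicate 1 (x axis) and replicate 2 (y axis) for 8777 protein-coding genes in grey, with 5 gene lists in colour and a dotted line of equal values. Most genes lie along the dotted line, while all 39 sperm genes lie below it, with more small RNA in replicate 1.

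The libraries differed most for genes of sperm. The 39 ranked sperm genes, most of them of the major sperm protein family, had a median level of 246 normalised reads per kilobase in replicate 1 and 7.37 in replicate 2. Relative to their bins they were 21.8-fold above in replicate 1 and 2.26-fold below in replicate 2, with 10 genes at 0 reads in replicate 2; the replicate 2 median was -0.63 on the log2 scale with those genes set to 3 reads. Their mean direction also turned without a length correction, to -1.58. The genes of this family are near-identical copies, so their reads and transcript levels are uncertain between copies. In the mutants the library numbered 1 was again the higher: the log2 medians were 3.09 and -0.93 in adr-1;adr-2 and 2.41 and -0.58 in eri-6. The libraries numbered 1 were also deeper, with 25690179 to 32303754 reads against 10904105 to 15417839, and had more microRNA, at 29.7% to 33.2% of reads against 16.8% to 19.7%; their part in the sperm gene difference was not tested.

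The 6 genes with the widest difference towards replicate 1, among those in the top 5% there, all had 0 reads in replicate 2. They were msrp-6 with 322 reads in replicate 1, msrp-5 with 364, F17E9.5 with 370, ssp-31 with 268, cyc-2.2 with 267 and msp-81 with 188. At the bin median msrp-6, of 273 bases, would have had only 1.58 reads in replicate 2, so its 0 there is not below what the bin holds, while msp-81 would have had 10.9. Of the sperm genes ssp-34 was highest by the smaller of its 2 distances, with 440 and 32 reads. By the same measure msp-152 was lowest, with 37 and 0 reads, although it lay 2.57-fold above its bin median in replicate 1. The Argonaute genes alg-3 and alg-4, which are known for sperm development and were not ranked, had 209 and 17 reads, and 179 and 3 reads. The 6 genes with the widest difference towards replicate 2 were ZK836.3 with 87 and 992 reads, col-38 with 59 and 629, Y57G7A.2 with 272 and 1342, ZK673.5 with 114 and 547, sdz-37 with 56 and 292, and ZC239.20 with 59 and 307. Each of these 6 was above its bin median in both libraries. The collagen gene col-60, the highest of its list, had 251 and 574 reads.

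The genes with the highest transcript levels had little small RNA per transcript, but none of the 10 highest was low for its bin. The ribosomal protein gene rpl-41.1 had the highest value, 164201 FPKM in total RNA and 1514 in mRNA, with 63 and 35 reads, and the value of its near copy rpl-41.2 was 23686 FPKM with 209 and 213 reads, which made it high. F23A7.8, of 204 bases, was at 36586 FPKM and was high with 352 and 458 reads. The ribosomal genes rpl-39 and rpl-38 had 32 and 30 reads, and 147 and 223. The mitochondrial gene COX3 had 815 and 163 reads at 15924 FPKM. As for rpl-41.1, the total RNA value stood far above that of mRNA in 3 others of the 10: arx-7 was at 17007 FPKM in total RNA and 136 in mRNA, ttr-44 at 11640 and 52.5, and F22F4.5 at 11274 and 15.4. In mRNA, F23A7.8 was at 4672 FPKM and COX3 at 2476. The genes arx-7, ttr-44 and F22F4.5 each overlap another gene; they had 59 and 96, 31 and 34, and 5 and 8 small RNA reads. The remaining member of the 10, dct-16, had 34 and 27 reads at 16129 FPKM.

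Pseudogenes and long noncoding RNAs carried much small RNA more often than protein-coding genes did. When placed in the bins of the protein-coding genes, 56 of 194 pseudogenes (28.9%) and 16 of 50 lncRNA loci (32.0%) were high, beside 3.85% of protein-coding genes; the difference was not tested. Pseudogenes had a median 8.17-fold and 11.2-fold above the bin median. The highest was F37H8.2 (WBGene00009511, chromosome II, 11171743 to 11175479), with 27494 reads in replicate 1 and 47940 in replicate 2 at 1.22 FPKM. It was followed by W04B5.2, F23D12.9, cars-2, Y60A9A.3 and K08B4.5, with 2991 to 16943 reads in replicate 1 and 8299 to 39923 in replicate 2. Of the 56, 8 overlap another gene. A pseudogene shares sequence with its parent gene, and no source used here says how reads that match both were counted.

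Of the noncoding loci, linc-63 (WBGene00219725, chromosome I, 3870642 to 3871267) was highest with 8003 and 13527 reads at 1.09 FPKM, whose deposited lower bound is 0. By the smaller of the 2 distances it was followed by M163.16, the locus over his-24 given above, then linc-11 with 6167 and 7227 reads and T09F5.12 with 16658 and 29097. After them came R10D12.18 with 1096 and 1695 reads, and linc-29 with 29812 and 54175 reads at 41.8 FPKM. For other ncRNA loci 17 of 156 were high (10.9%), and 12 of the 17 overlap another gene. Of 35 antisense RNA loci 0 were high; 34 of the 35 overlap another gene.

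**Figure D4:**
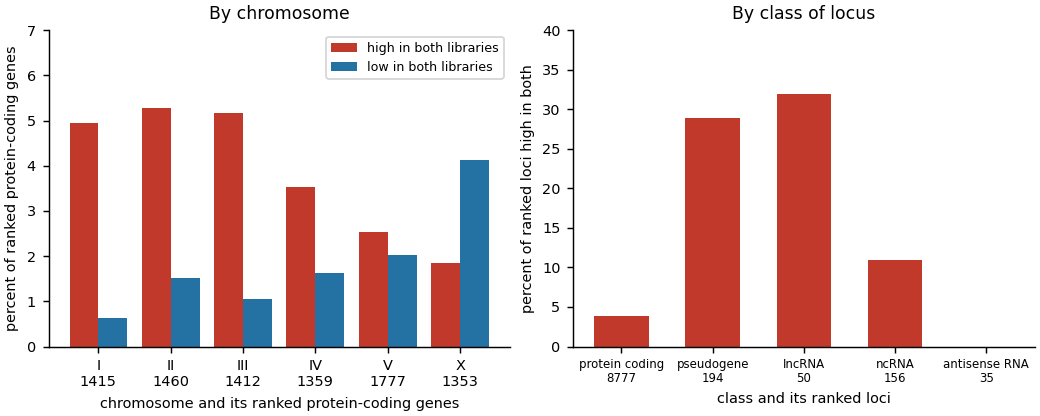
Left, percent of ranked protein-coding genes called high (red) or low (blue) in both wild-type libraries on each chromosome, with the number of ranked genes under the name. Right, percent of ranked loci of each class that were high, with the number of loci; the X chromosome has the lowest share of high genes and the highest share of low genes, and pseudogenes and lncRNA loci stand at 28.9% and 32.0%.

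High and low genes were spread unevenly over the chromosomes, which the calls did not use. On chromosomes I, II and III the high genes were 4.95%, 5.27% and 5.17% of the ranked genes, on IV 3.53% and on V 2.53%. The X chromosome had 25 high genes of 1353, or 1.85%, and 56 low genes, or 4.14%, while chromosome I had 9 low of 1415, or 0.636%. The median X-linked gene lay below its bin median in both libraries, at -1.86 and -2.09 on the log2 scale, and the median gene of chromosome I lay above, at 0.83 and 0.96. High genes lay next to each other more often than ranked genes in general lay next to a high gene. Of the 338, 57 (16.9%) had another high gene as the neighbouring ranked gene, beside 7.51% of all ranked genes. For the low genes these shares were 11.9% and 3.61%. No test was made of these differences.

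The high genes were shorter than the rest, with a median span of 1532.5 bases against 2303 for all ranked genes and 2544.5 for low genes. The span is the divisor of the level that the calls used, so this difference is not independent of them; without a length correction 235 of the 338 high genes were still high. Overlap with another protein-coding gene, pseudogene or lncRNA was about as common in high genes (27.8%) and low genes (30.6%) as in all ranked genes (29.8%). Overlap with an annotated piRNA gene was 2.37% in high genes, 3.75% in low genes and 2.95% in all. The ratio of total RNA FPKM to mRNA FPKM of wild type on control RNAi food had a median of 0.498 in high genes, 0.56 in all ranked genes and 1.16 in low genes. The total RNA and mRNA values were scaled separately, so only the order of these medians is given. Total RNA FPKM also set the bins, so this order is not independent of the calls.

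In small RNA libraries that the calls did not use, most high genes were high again. Of the 338, 304 and 264 lay in the top 5% of their bin in the adr-1;adr-2 libraries (strains BB4 and BB21) and 306 and 297 in the eri-6 libraries (strain GR1814), and 232 lay there in all 6 libraries. The bins are those of wild-type transcript level. Of the 160 low genes, 85 and 77 lay in the bottom 5% in the adr-1;adr-2 libraries and 94 and 84 in the eri-6 libraries, and 32 did so in all 6. No low gene lay above the bin median in both libraries of either mutant (0 of 160).

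**Figure D5:**
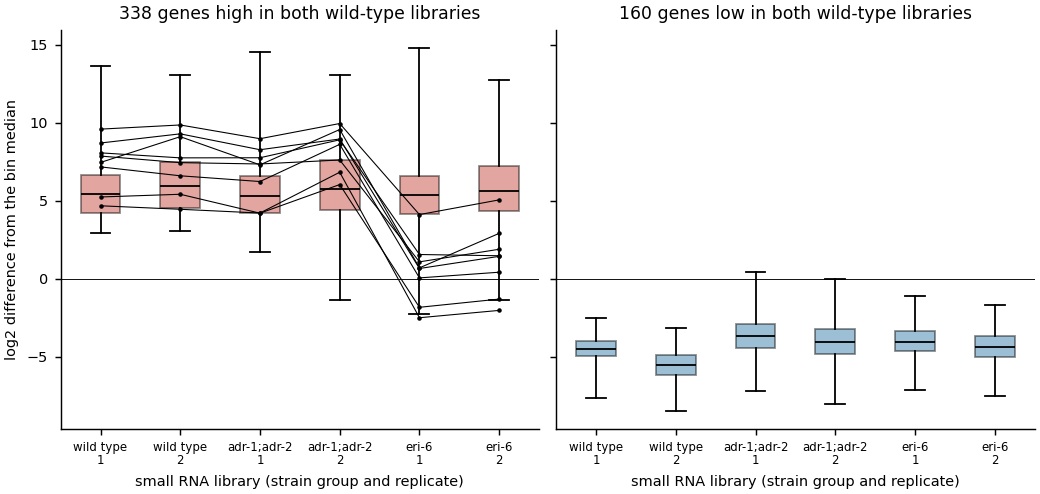
Log2 distance from the bin median (y axis) in 6 small RNA libraries (x axis) of the 338 genes high in both wild-type libraries (left) and the 160 low in both (right). Boxes give quartiles and median, and whiskers the lowest and highest gene; black lines on the left follow the 8 ranked ERGO-1 class genes, of which 6 are among the 338, and these lines drop in both eri-6 libraries while the boxes stay at medians of 5.34 and 5.62.

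The ERGO-1 class parted from the other high genes in the eri-6 libraries. Its median was 7.33 and 8.76 above the bin median on the log2 scale in adr-1;adr-2, and 0.68 and 1.46 in eri-6. Of all 338 high genes, 1 lay below the bin median in both eri-6 libraries. It was Y36E3A.2 (WBGene00194708, chromosome V, 15426041 to 15426970), which overlaps the F-box gene fbxa-209 and is not on the ERGO-1 list. It had 4433 reads in wild-type replicate 1 and 1677 in replicate 2 at 6.45 FPKM, 172-fold and 63.3-fold above its bin median, and lay at -2.25 and -1.36 on the log2 scale in eri-6. This gene was picked for that pattern after its values were seen.

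Genes under 1 FPKM were left out of the ranking, since the deposited bounds of such values are wide. Of 4554 protein-coding genes of at least 200 bases that are listed at 0 FPKM, 62 had more small RNA per kilobase than the 95th percentile of the lowest bin in both libraries. Of 3589 genes above 0 and under 1 FPKM, 102 did. The medians of these groups were 2.32 and 2.48 normalised reads per kilobase for genes listed at 0, and 5.001 and 4.33 for the others. Both groups were thus mostly sparse in small RNA, with these exceptions.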

How the data were processed

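The authors deposited small RNA as a normalised signal for each gene in each library; dividing by 1 factor per library gave whole reads within 0.01 read for 100% of values, and these are the reads given. FPKM was deposited as 1 value over both wild-type total RNA libraries, with bounds whose level no source used here states; depth is unknown for total RNA and mRNA. Trim Galore, BWA, featureCounts, DESeq2, TopHat2, Cufflinks, Cuffdiff and build WBcel235 are named by the submitters' processing notes; no source used here gives versions or settings. Intervals and floors cover counting error only.

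The level was log2 of (normalised reads + 1) per kilobase of the gene's RefSeq span in WBcel235. The planned exon length could not be had without an exon annotation, and deposited loci often join several overlapping genes. RefSeq entries were matched by name for 46329 IDs and by place for 11 (at least 95% overlap). Of 36234 total RNA entries, 321 were left out because 1 ID had several. No test was made: each wild-type strain has 1 small RNA library, transcript level has 1 value, and genes are not replicates. No count model was run, since no groups of libraries are compared. The ranking was tested on simulated data.

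Members, lists and rules were chosen with earlier results of these data known. The 12 highest protein-coding genes by the smaller of the 2 distances and the 12 lowest of at least 10 FPKM are named. So are the 6 highest pseudogenes, the 6 highest noncoding loci, and the 6 top 5% genes with the widest difference each way. The 10 ranked genes with most small RNA per kilobase and the 10 of highest FPKM are also named. The rest are all ranked members of the first 4 lists and the extremes of every other list by the smaller distance. The mitochondrially encoded list had 0 ranked members under its symbols. The tools were matplotlib 3.10.9, numpy 2.4.6, pandas 2.3.3 and Python 3.11.15. Alternatives changed the pseudocount, FPKM minimum and source, number of bins, length, scaling, threshold and library; leaving out overlapping genes was added after the data were seen.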

Additional observations from a re-analysis of the deposited data

How the results depend on the processing

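No paired analysis was possible because transcript level is 1 value over both total RNA libraries and only 1 genotype is described. High genes numbered 220 at 5 FPKM or more, 750 at 8-fold above the bin median and 688 at the top 10%, and were within 1.5 times of 338 under every other alternative run (231 to 462), including 440 with either library left out. Membership moved more than the number: of the 338, 206 were high by the plain ratio, 235 without length correction and 259 with the deposited locus. Low genes numbered 104 at 5 FPKM or more, 262 with the deposited locus as length, 301 with reads scaled by library total, 340 by the plain ratio to FPKM, 1112 at 8-fold below, 458 at the bottom 10%, 100 without genes that overlap another gene, and 440 or 439 with 1 library left out (439 to 440). Of the 160, 49 were low with reads scaled by library total and 48 by the plain ratio. Scaling by library total changes calls only through the pseudocount of 1, which then stands for more reads. The 301 and the 49 thus reflect a larger pseudocount. High pseudogenes numbered 102 with no FPKM minimum, 16 at 5 FPKM or more, 26 with the lower FPKM bound, 97 at 8-fold, and 58 to 61 with 1 library left out. The log2 rise in median small RNA from the lowest to the highest bin was 3.02 ± 0.36 (SD between the 2 libraries). It was 2.56 with a pseudocount of 5, 3.51 with no FPKM minimum, 0.88 at 5 FPKM or more, 1.64 with the deposited locus, 1.61 without length, 4.55 and 4.47 with mRNA FPKM of the nrde-3 and drh-1 tables, 2.15 with the lower FPKM bound, 1.99 with reads scaled by library total, and 2.76 to 3.27 with 1 library left out. Fewer genes enter at a higher FPKM minimum, and the lowest bin then starts at a higher FPKM. The value with reads scaled by library total likewise differs only through the greater weight of the pseudocount. The other causes were not tested.

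Of the list medians (mean of both libraries, log2), these turned sign. Without length correction the sperm genes were at -1.58 and the histone genes at -0.089. By the plain ratio, ribosomal protein genes were at -5.80, translation factors at -0.45, histones at -1.27, respiratory chain genes at -2.998 and pals genes at 0.78. With mRNA FPKM, respiratory chain genes were at -0.35 and -0.36 and pals genes at 2.96 and 2.90. The pals genes were also at 0.28 with no FPKM minimum and 0.092 without overlapping genes. With 1 library left out, pals genes ranged from -0.51 to 0.075 and sperm genes from -1.17 to 4.45. Of the list medians under the alternatives that can move them, 203 stayed within the spread of the 2 libraries, another 203 moved by more with the same sign and 15 turned.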
